A study of Mus musculus with 4 samples.

Results

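Chromatin bound by SOX3 was mapped in 3 biological replicates of mouse NP (neural progenitor) cells. The cells were derived from R1, a line of mouse embryonic stem cells, kept as a monolayer for 4 days in the serum-free medium N2B27. All replicates came from this 1 line and were immunoprecipitated with 1 goat polyclonal antibody raised against human SOX3, and an input sample taken without the antibody served the authors as the background for peak calling. Each replicate gave 1 list of peaks with a MACS score, read here as 10 times the negative log10 of the p-value of the peak because the lowest score was 50 and the authors' p-value threshold was 1e-05. Overlapping peaks of the 3 lists were merged into 51271 regions, of which 5358 held a peak from each replicate. The strongest sites were the merged regions whose highest score was 200 or more (a p-value of 1e-20 or less on this reading) in each of the 3 replicates, and there were 1070 of them, 20.0% of the regions with a peak from each replicate. The scores thus chose the members and are given as a description, whereas sequence and position relative to genes were not used to choose them. The lists hold no expression values, so markers of neural progenitor cells could not be checked. They hold no read counts either, so sequencing depth is not known, and the input was not analysed here.

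SOX3 belongs to the SOXB1 group of transcription factors, with SOX1 and SOX2. Their HMG box binds a short A/T-rich word in the minor groove and bends the DNA, and SOX proteins often act beside a partner, such as a POU-domain protein that binds the octamer. SOXB1 proteins are expressed in dividing neural progenitors, where they are known for holding back neuronal differentiation.

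The words counted were an A-form SOX word (AACAAA or AACAAT), a G-form SOX word (GACAAA or GACAAT), a shorter SOX core (ACAAAA or ACAAAG or ACAATA or ACAATG, which overlaps the other forms), the POU octamer (ATGCAAAT or ATGCTAAT) and the SOX/POU composite word, a loose SOX site followed directly by ATGCAAA or ATGCTAA, which overlaps the octamer. Words were searched on both strands in a window of 200 bp around the centre of each site, and a match is a description of the sequence, not a proof of binding. The windows of some of the strongest sites are shown here, since they carry the words behind the comparisons below. They are from mm9 (NCBIM37), plus strand, with the A-form and G-form SOX words, octamers and composite words in capitals, so that a word on the minus strand appears as its reverse complement.
Sox13, intron, chr1:135294348-135294547: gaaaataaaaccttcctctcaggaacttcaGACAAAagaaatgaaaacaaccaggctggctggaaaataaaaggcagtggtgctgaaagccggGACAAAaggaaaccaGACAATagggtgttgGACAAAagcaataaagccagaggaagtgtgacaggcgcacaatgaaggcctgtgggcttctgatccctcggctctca
Sox13, upstream, chr1:135389142-135389341: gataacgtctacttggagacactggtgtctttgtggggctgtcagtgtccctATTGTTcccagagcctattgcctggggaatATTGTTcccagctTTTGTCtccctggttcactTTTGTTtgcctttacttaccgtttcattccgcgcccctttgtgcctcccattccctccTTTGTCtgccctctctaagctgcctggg
Nkx2-1, intergenic, chr12:57559884-57560083: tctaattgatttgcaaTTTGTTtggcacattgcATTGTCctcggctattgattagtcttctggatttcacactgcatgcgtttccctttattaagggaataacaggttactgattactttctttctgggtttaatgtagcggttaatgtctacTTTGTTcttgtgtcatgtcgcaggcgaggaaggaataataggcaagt
Epha4, intron, chr1:77458461-77458660: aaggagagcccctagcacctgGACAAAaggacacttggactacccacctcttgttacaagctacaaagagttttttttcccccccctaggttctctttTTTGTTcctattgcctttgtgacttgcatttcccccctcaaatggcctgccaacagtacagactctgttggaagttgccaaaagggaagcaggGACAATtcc
Nes, intron, chr3:87778324-87778523: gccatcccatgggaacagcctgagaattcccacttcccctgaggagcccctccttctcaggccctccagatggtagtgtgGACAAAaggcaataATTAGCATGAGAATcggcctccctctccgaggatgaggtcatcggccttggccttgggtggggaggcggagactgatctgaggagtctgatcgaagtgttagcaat
Tcf7, upstream, chr11:52099996-52100195: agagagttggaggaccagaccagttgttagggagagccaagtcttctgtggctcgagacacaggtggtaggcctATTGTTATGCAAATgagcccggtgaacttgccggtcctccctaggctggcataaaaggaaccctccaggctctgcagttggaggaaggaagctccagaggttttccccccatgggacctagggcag
The Sox13 intron window held 4 G-form words and no A-form word, and the upstream Sox13 window held 3 A-form and 2 G-form words. The Nes window held a G-form word and, on the minus strand, a composite word with an octamer, whereas the Tcf7 window held a single composite word that joins an A-form word to an octamer.

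The replicates did not contribute equally to the choice. Of the 5358 regions, 2402 reached a score of 200 in replicate 1, 1128 in replicate 2 and 2481 in replicate 3, and replicate 2 gave the lowest score of 980 strongest sites (91.6%), against 90 for replicate 1 and 0 for replicate 3. A score of 200 stood at percentile 84.9, 85.9 and 93.4 of the lists of replicates 1, 2 and 3. The peaks of replicates 2 and 3 began at the same base in 409 strongest sites (38.2%), against 9 (0.841%) for replicates 1 and 2 and 9 (0.841%) for replicates 1 and 3, and their scores had a Spearman's rho of 0.92 over the 1070 sites, against 0.73 and 0.69 for the other pairs. Over the 4288 other regions, the peaks of replicates 2 and 3 began at the same base in 34.6%, with a rho of 0.83. There, replicates 1 and 2 had 1.00% and a rho of 0.47, and replicates 1 and 3 had 1.66% and a rho of 0.41. The closeness of replicates 2 and 3 was thus not particular to the strongest sites. Regions without a peak from each replicate were not compared. Whether the libraries of replicates 2 and 3 share material was not tested. The main differences in A-form and G-form SOX words, the octamer and the composite word were recomputed without each replicate. So were those at promoters, in introns, between genes, on small RNA, at histone genes and in multi-copy sequence, and the numbers of sites and genes. The other comparisons below were not. As a description of how the choice divided the regions, of those at 200 or more in the other replicates 1070 of 1804 also reached it in replicate 2, 1070 of 1136 in replicate 1 and 1070 of 1072 in replicate 3. The members were chosen by the scores of all 3 replicates, so these counts are no independent check. All intervals given cover counting error only.

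**Figure D1:**
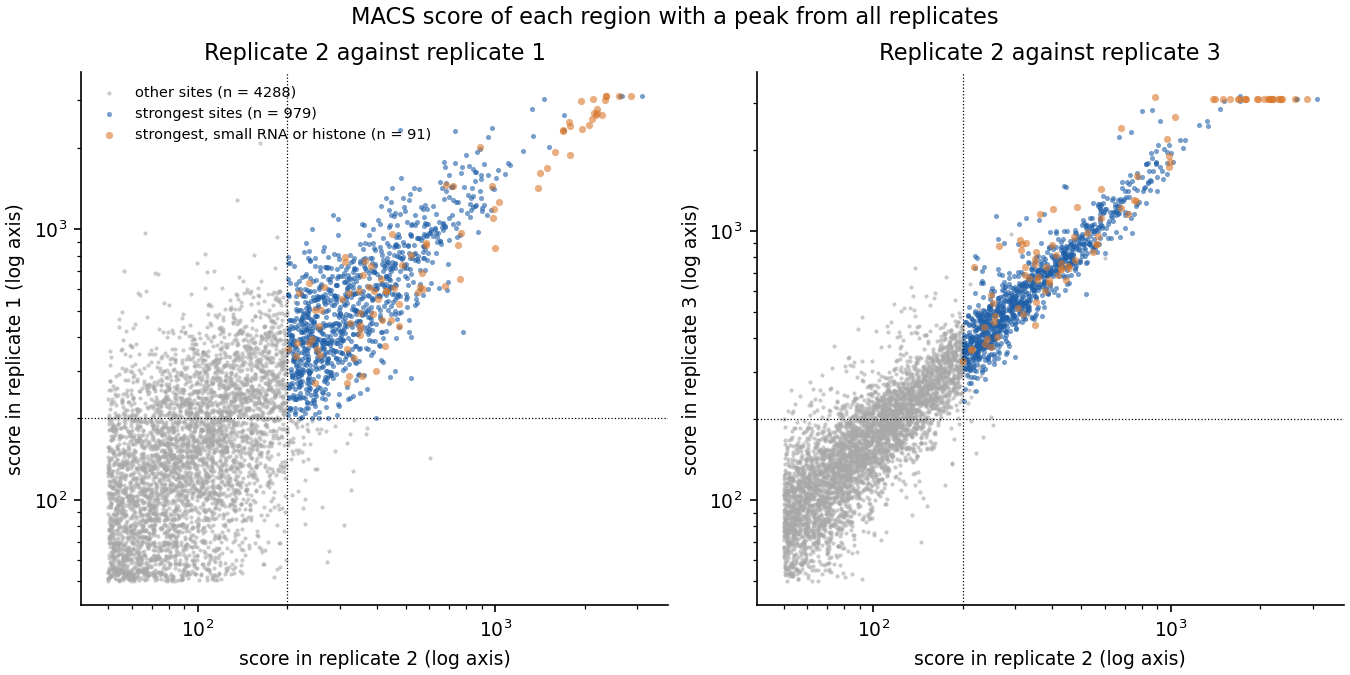
MACS score (log axes) of all 5358 regions with a peak from each replicate, replicate 2 on the x axis against replicate 1 (left) and replicate 3 (right); dotted lines mark 200. The 979 strongest sites away from small RNA and histone genes are blue, the 91 set apart are orange, the 4288 other regions are grey, and the cloud is tighter for replicates 2 and 3.

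The median score of the strongest sites was 538 in replicate 1, 324 in replicate 2 and 607 in replicate 3. The lowest scores were 200.1, 200.6 and 234, and the highest 3100, 3100 and 3162. A score of 3100 or more was found in 7, 1 and 29 strongest sites of replicates 1, 2 and 3. In replicates 1 and 3 several sites shared a score of 3100, so that the order of the highest sites is not resolved by these values. The sites just inside the threshold were an intron of Zfp536 (200.1, 274 and 573 in replicates 1, 2 and 3), an intron of St6galnac3 (353, 200.6 and 338) and an intron of Nos1ap (200.6, 221 and 406). Just outside were introns of Msra (220.3, 199.9 and 298), Lhcgr (234, 199.9 and 447) and Chsy3 (435, 199.9 and 369). The strongest sites spanned a median of 545.5 bp, against 371 bp for the 4288 other regions.

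Of the 1070 strongest sites, 55 overlapped an annotated small RNA gene and 36 had their centre within 2000 bp of the start of a replication-dependent histone gene, with 0 in both classes. These 91 sites (8.50%) were set apart, as were 44 of the 4288 other regions (1.03%). Small RNA sites made up 5.14% of the strongest sites against 0.303% of the other regions (4.84 percentage points, 95% Newcombe interval 3.65 to 6.33), and this difference was 2.68 points (1.94 to 3.61) without replicate 2, 8.35 points (6.31 to 10.9) at a score of 300 and 10.1 points (7.44 to 13.5) with the 600 highest peaks of each list. They stood high in the order by lowest percentile over the 3 lists, since the first 36 strongest sites held 24 on small RNA genes, and the first 100 held 30 on small RNA genes and 3 at histone genes. Repeated sequence went with both classes: 17 of the 55 small RNA sites (30.9%) and 18 of the 36 histone sites (50%) were mostly multi-copy (over 50% of the 50-base stretches of the region also occur elsewhere in the reference), against 60 of the 979 remaining sites (6.13%). The part of repeated sequence in these scores was not tested.

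Among the small RNA sites, 44 lay on snRNA genes, which encode the RNAs of the spliceosome and of histone RNA processing, 6 on snoRNA genes and 5 on annotated miRNA genes. snRNA genes were overlapped by 4.11% of the strongest sites and by 2 of the 4288 other regions (0.0466%). By name, there were 19 sites for 206 annotated U1 genes, 9 for 51 U2 genes, 7 for 10 U5 genes and 2 for 43 U4 genes. There was 1 site each for the 5 U11 genes, the 6 U12 genes, the 1 U4atac gene and the 116 U7 genes. The 936 annotated U6 genes, the 331 of 7SK and the 129 of 5S rRNA had 0. These totals count all annotated entries of a name, and which of them are transcribed is not known here. The site at chr12:55810766-55812279, which overlapped a U1 gene, had scores of 3100, 2866 and 3100 in replicates 1, 2 and 3, and another site on a U1 gene, at chr12:55838593-55840035, had 3100, 2611 and 3100. The U1 sites at chr3:96262758-96264410 (3100, 2357 and 3100) and chr3:96254071-96255703 (3100, 2347 and 3100) and an snRNA site at chr1:72301245-72302676 (3007, 2335 and 3100) followed. All 44 snRNA sites were centred downstream of the 5' end of the gene they overlapped, by 10 to 544 bp (median 189). A SOX word of either form was present in 28 of 55 windows, less often than at the 979 remaining sites (50.9% against 80.8%, difference -29.9 percentage points, 95% Newcombe interval -42.9 to -16.9). The A-form was present in 29.1% against 60.3% (-31.2 points, -41.9 to -17.8), whereas the interval of the G-form difference held 0 (32.7% against 45.5%, -12.7 points, -24.1 to 0.801). The octamer was present in 0 of 55, which allows a share of up to 5.45% if 3 windows are taken as the limit of a count of 0 (upper 95% Wilson limit 6.53%).

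The histone sites lay at 45 of the 67 annotated histone genes of these clusters, genes that are transcribed in S phase. By the different measure of the nearest gene, 4.10% of all protein-coding genes had a strongest site. Histone sites made up 3.36% of the strongest sites against 0.723% of the other regions (2.64 points, 95% Newcombe interval 1.67 to 3.92). Hist1h4j, a histone H4 gene, had scores of 972, 768 and 1595 in replicates 1, 2 and 3, Hist2h2aa2 (histone H2A) had 877, 750.5 and 1304, and Hist2h3c1 (histone H3) had 1442, 718 and 1153. Hist1h3b (610, 559 and 893) and Hist1h3d (604, 571 and 960) came next. Hist1h2ao and Hist1h2ap had the same scores in every replicate (592, 429 and 723), and both regions were 100% multi-copy. Centres lay from 254 bp upstream to 1607 bp downstream of the nearest histone gene start, with 33 of 36 downstream (median 234.5 bp). Their windows had a median GC content of 64.8%, and a SOX word of either form was present in 8 of 36 (22.2%, difference from the remaining sites -58.6 points, -69.3 to -42.5) and the octamer in 0 of 36, which allows up to 8.33% by the same limit of 3 windows (upper 95% Wilson limit 9.64%). The following comparisons are between the 979 strongest sites and the 4244 other regions that remained.

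SOX words were more frequent in the strongest sites than in the other regions, in both forms. An A-form or G-form word was present in 791 of 979 windows (80.8%) against 64.3% of the other regions, a difference of 16.5 points (95% interval 13.6 to 19.3), with 48.8% of all 200 bp tiles of the genome and 43.0% of windows 2000 bp to the sides of the strongest sites. The difference was 20.7, 17.5 and 17.0 points when replicate 1, 2 or 3 was left out. The A-form was present in 60.3% against 47.2% (13.1 points, 9.62 to 16.4; tiles 36.3%) and the G-form in 45.5% against 32.2% (13.3 points, 9.86 to 16.7; tiles 20.6%). The ratio of strongest to other was thus 1.28 for the A-form and 1.41 for the G-form, and these ratios were not tested against each other. The core was present in 85.3% against 71.8% (13.5 points, 10.8 to 16.0; tiles 52.7%). Taken singly, AACAAA and AACAAT and GACAAA and GACAAT were each more frequent, with differences of 8.18, 7.17, 7.17 and 7.97 points. The windows of 265 strongest sites held 2 SOX words (27.1%), those of 99 held 3 (10.1%), those of 29 held 4 (2.96%) and those of 14 held 5 or more (1.43%), against 18.5%, 7.02%, 1.86% and 0.778% of the other regions. Among the first sites, Crygs had 4 such words and the upstream Sox13 site 5.

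The POU octamer was present in 120 strongest sites (12.3%) against 8.29% of the other regions, a difference of 3.96 points (1.87 to 6.30), with 2.20% of the flanks and 2.51% of the tiles. Of these windows, 85 (8.68% of the strongest sites) also held an A-form or G-form word, against 4.90% of the other regions. The composite word was present in 83 strongest sites (8.48%) against 6.29% (2.19 points, 0.423 to 4.22), with 0.204% of the flanks and 0.317% of the tiles. The composite difference was 1.53 points (-0.113 to 3.42) when small RNA and histone sites were kept in and 2.67 points (-0.0340 to 6.23) with the 600 highest peaks of each list. It ranged from 1.53 to 4.05 points over 12 settings, the highest at a score of 300 (1.59 to 7.06). Both words stood close to the centre: of the 85 composite words in the strongest sites, 74 (87.1%) had their middle within 50 bp of it.

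**Figure D2:**
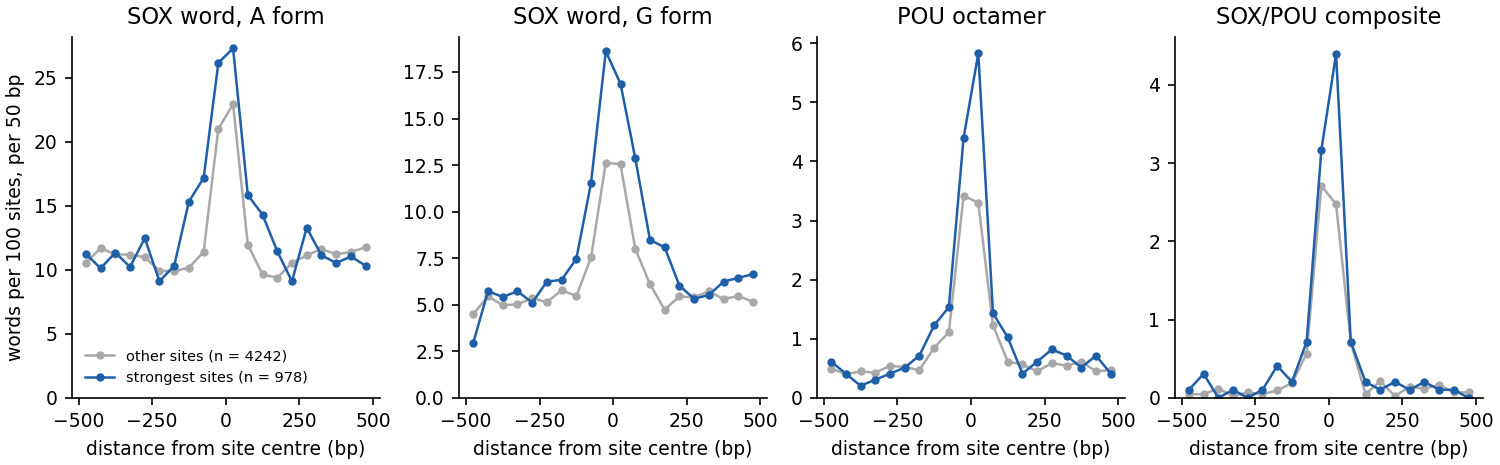
Words per 100 sites in bins of 50 bp by distance from the site centre (x axis, bp) for the 978 strongest sites (blue) and 4242 other regions (grey) whose whole span had known bases, 1 panel a word. The 4 words rise within 100 bp of the centre, and in the bins just left and right of the centre the strongest sites had 26.2 and 27.3 A-form words per 100 sites against 21.0 and 22.9, 18.6 and 16.9 G-form words against 12.6 and 12.5, 4.40 and 5.83 octamers against 3.42 and 3.30, and 3.17 and 4.40 composite words against 2.71 and 2.48.

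The composite words of 7 of the first 8 strongest sites that held one are aligned here, with 10 bases on each side, on the strand on which the word reads from the SOX part to the POU part, and with the composite word in capitals.
Nrarp, chr2:25036213-25036245, plus: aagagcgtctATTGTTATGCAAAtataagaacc
Klf13, chr7:71102124-71102156, plus: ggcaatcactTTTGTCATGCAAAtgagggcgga
2210404J11Rik, chr17:15345225-15345257, minus: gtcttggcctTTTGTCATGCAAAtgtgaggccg
Galnt7, chr8:60211826-60211858, minus: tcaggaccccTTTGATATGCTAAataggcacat
Naf1, chr8:69610394-69610426, plus: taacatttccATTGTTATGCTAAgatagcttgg
Gtdc1, chr2:44380927-44380959, plus: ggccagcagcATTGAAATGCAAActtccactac
Rgma, chr7:80545272-80545304, plus: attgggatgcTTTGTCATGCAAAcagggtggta
Nrarp, a feedback inhibitor of Notch signalling, had its site at the promoter, centred 80 bp from the start, with scores of 1750, 916 and 1730 in replicates 1, 2 and 3. Klf13, a zinc-finger factor, had 1694, 771 and 1639 at 18350 bp. The Rgma site lay in an intron of this guidance molecule gene (983, 608 and 1203). In 14 of the 85 composite words (16.5%) the SOX part read as an A-form word and in 10 (11.8%) as a G-form word, against 11.1% and 3.70% of the 270 composite words of the other regions, and in 61 (71.8%) it was neither. The first base after TT was G in 56.5% of the composite words of the strongest sites and in 40.7% of those of the other regions. In the POU part, ATGCAAA made up 72.9% and ATGCTAA 27.1%, against 59.6% and 40.4% of the composite words of the other regions. These shares of words were compared with no test, since a site may hold more than 1.

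The share of sites with a SOX word rose with the lowest score from 58.3% (scores of 50 to 75) to 78.5% (150 to 200) among the other regions, and was 78.8% (200 to 300), 80.7% (300 to 500) and 86.2% (500 and more) among the strongest sites. The step across the threshold was therefore small, and the 95% intervals of the bins on either side of it overlapped (74.8 to 81.8 and 74.9 to 82.3). The G-form reached 53.0% in the highest bin, against 27.8% in the lowest, and was 43.8% just outside the threshold and 41.1% just inside it. The octamer went from 6.64% in the lowest bin to 9.79% and 10.3% on either side of the threshold, 14.8% at 300 to 500 and 12.7% in the highest bin. The composite word did not follow the score bin by bin, with 5.35% in the lowest bin, 8.36% at 100 to 150, 7.49% and 6.42% on either side of the threshold, 10.9% at 300 to 500 and 9.39% in the highest bin. Multi-copy sequence went the other way, from 19.9% mostly multi-copy regions in the lowest bin to 3.31% in the highest, but it was 5.37% just outside the threshold and 8.14% just inside it. Among regions that were not mostly multi-copy, a SOX word of either form was present in 82.6% of the strongest and 70.5% of the other regions (12.1 points, 9.10 to 14.8).

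**Figure D3:**
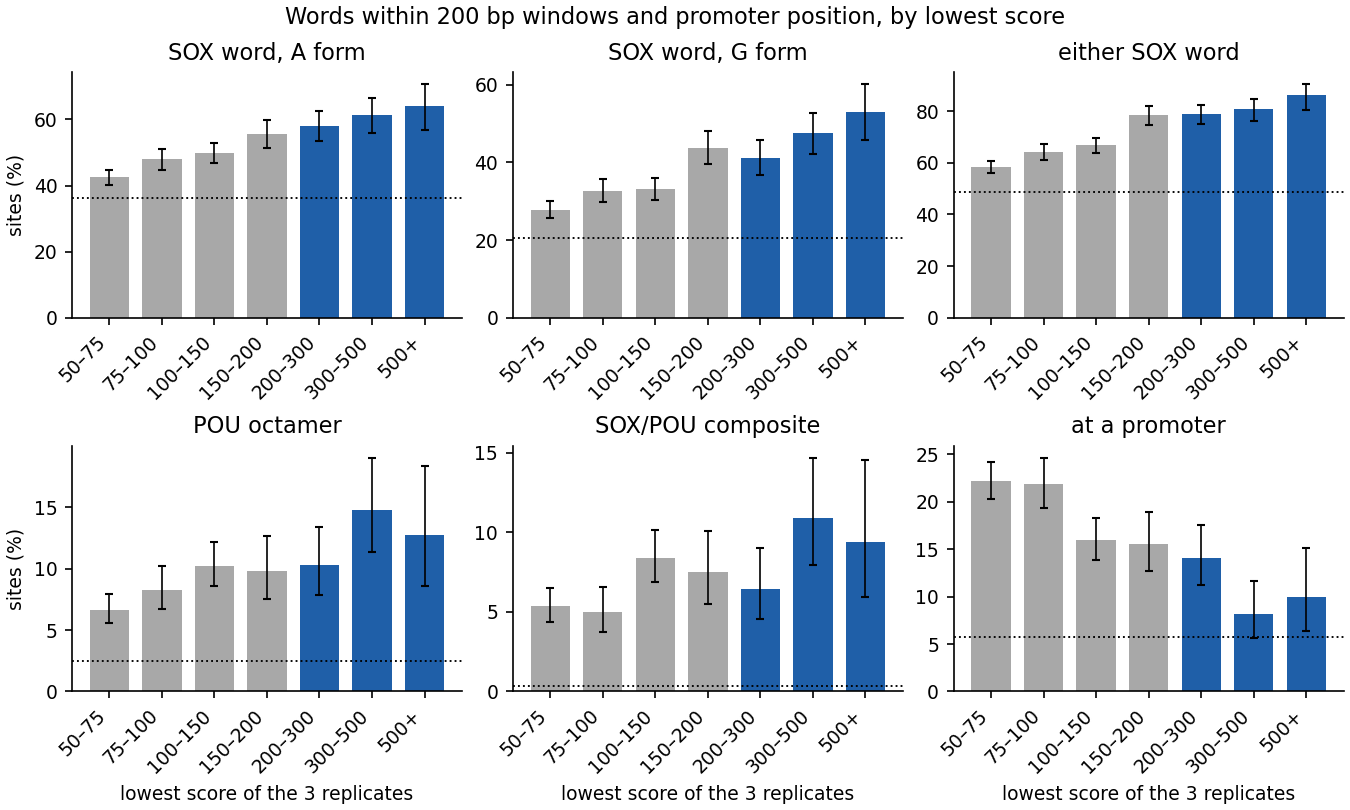
Share of sites (y axis, %) with each word in the 200 bp window, and share at a promoter, by the lowest score over the 3 replicates (x axis); bars are shares, whiskers 95% Wilson intervals, dotted lines the share of all 200 bp tiles of the genome, and blue bars the strongest sites. The A form is AACAAA or AACAAT and the G form GACAAA or GACAAT; SOX words are more frequent, and promoters less, in the highest bin than in the lowest.

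No A-form, G-form or core SOX word and no octamer was found in 95 of the 979 windows (9.70%), the composite word not being counted. These windows were more often at promoters (19 of 95, 20.0%) than those with a word (10.4%, difference 9.59 points, 2.44 to 18.9), were more often mostly multi-copy (21.1% against 4.52%, 16.5 points, 9.36 to 25.8) and had a median GC content of 53.5% against 48.5%. The first of the 12 highest sites was among them. It covered 5912 bp (chr17:39979869-39985780), had a score of 3100 in every replicate, had a GC content of 71.0% in its window and lay 362729 bp from the nearest protein-coding start, that of Pgk2, over the annotated pseudogene AY036118. The next without a word were a site 3606 bp from the start of Fzd8 (1422, 974 and 1962) and a site in an intron of Tnfsf11 (1582, 942 and 1556).

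The strongest sites lay less often at promoters, within 2000 bp of the start of a protein-coding gene, than the other regions did. Promoters held 111 strongest sites (11.3%) against 19.7% of the other regions, a difference of -8.41 points (-10.6 to -5.97), with 5.71% of all tiles of the genome. Without replicate 1 the promoter difference was -5.15 points (-7.20 to -2.86). Introns held 333 (34.0%) against 27.7% (6.35 points, 3.15 to 9.65; tiles 32.6%), and intergenic sequence 520 (53.1%) against 51.4% (1.73 points, -1.75 to 5.18; tiles 59.7%). The intergenic difference had the opposite sign without replicate 1 (-1.38 points, -4.64 to 1.87) and was called without replicate 2 (4.60 points, 1.92 to 7.27). Exons away from promoters held the centre of 15 (1.53%) against 51 of the 4244 other regions (0.330 points, -0.378 to 1.35; tiles 2.02%). More than 100000 bp from any protein-coding start lay 24.7% against 21.2% (3.56 points, 0.673 to 6.60). A SOX word of either form was present in 68.5% of the strongest sites at promoters and in 82.4% of those elsewhere (difference -13.9 points, -23.4 to -5.56). At promoters, the strongest sites exceeded the other regions in SOX words by 14.9 points (5.15 to 23.5) and in composite words by 6.33 points (9.91% against 3.58%, 1.79 to 13.4). Away from promoters the composite difference was 1.34 points (-0.550 to 3.52), and the difference between these differences was not tested.

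**Figure D4:**
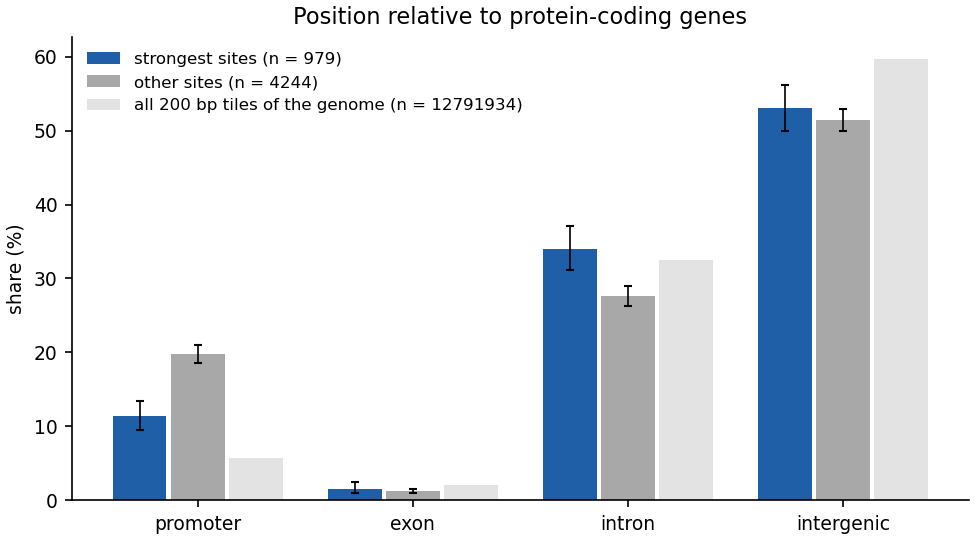
Share (y axis, %) of the 979 strongest sites (blue), the 4244 other regions (dark grey) and all 200 bp tiles of the genome (light grey) at promoters, in exons, in introns and between genes; whiskers are 95% Wilson intervals. Promoters held 11.3% of the strongest sites against 19.7% of the other regions, and introns 34.0% against 27.7%.

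Chromosome 1 carried 139 of the 979 strongest sites (14.2%) against 10.01% of the other regions (4.18 points, 1.93 to 6.67) and 7.43% of the genome, and chromosome 8 carried 7.76% against 8.32%, with 4.96% of the genome. Chromosome X carried 13 strongest sites (1.33%) against 2.50% (-1.17 points, -1.92 to -0.145). These were picked out of 21 chromosomes after the values were seen. A neighbouring region with a peak from each replicate lay within 10000 bp of 16.9% of the strongest sites and of 16.6% of the other regions.

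The 1070 strongest sites had 918 protein-coding genes as their nearest, 4.10% of the 22367 annotated, and any region with a peak from each replicate had 3695 (16.5%). The 12 first sites away from small RNA and histone genes lay, after the AY036118 region, in an intron of Sox13, a SOXD-group gene (3100, 2663 and 3100 in replicates 1, 2 and 3), and in an intron of Rbm17, a splicing factor gene (3100, 2626 and 3100). The Rbm17 window was a tandem repeat with 7 G-form words, and 69.3% of the region was multi-copy. An intron of Ano1, a chloride channel gene (2322, 1707 and 3033), and intergenic sites nearest to Gm10797 (2648, 1706 and 3162), Sox13 (2012, 1515 and 3049) and Dhrs9, a dehydrogenase gene (3041, 1463 and 2837), followed. The last of the 12 were sites near Eno4 (2216, 1337 and 2461), Spry2 (2778, 1327 and 2561), Cdk5r2, an activator of CDK5 (1944, 1241 and 2485), Crygs, a lens crystallin gene (1735, 1116 and 2178), and Akap12, a kinase anchoring protein gene (1764, 1100.3 and 2029). The lowest percentile of these 12 in any list was 99.6, that of Akap12 in replicate 2.

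Some genes were nearest to several strongest sites. Of the 855 genes nearest to the 979 sites, 764 had 1, 70 had 2, 15 had 3, 2 had 4, 3 had 5 and 1 had 7. Epha4, a receptor of ephrins in axon guidance, had 7 sites from 12262 to 114961 bp from its start, and each had a SOX word of either form. In the order by lowest percentile, its first site had 1510, 852 and 1421 in replicates 1, 2 and 3, its next 980, 873 and 1668, and its last 429, 257 and 423. Sox13 had 5 sites, all with a SOX word, the last of them in this order with 441, 240.1 and 489. Pax3, a dorsal neural tube factor on the same chromosome as Epha4 and Sox13, had 4 intronic sites, 3 with a SOX word (the first with 902, 652 and 1150), and Nos1ap, an adaptor of neuronal nitric oxide synthase, had 5 intronic sites, 4 with a SOX word.

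Pcdh19, a protocadherin gene on chromosome X, was unlike these. Its 5 strongest sites were 156 to 349 bp wide, against a median of 536 bp over the 979, and 1 of the 5 had a SOX word of either form. The highest (chrX:130216590-130216786) had scores of 1234, 917 and 2571 in replicates 1, 2 and 3, and the narrowest (chrX:130221460-130221615) had 539, 275 and 645. The other 3 Pcdh19 sites had scores between 365 and 988. All 9 regions nearest to Pcdh19 with a peak from each replicate overlapped one of its exons, and together they touched each of its 6 exons after overlapping exons were merged, although exons make up 9.70% of the gene. An exon of a protein-coding gene was overlapped by 8.78% of the 979 strongest sites and by 14.5% of the 4244 other regions. The width and the match to exons were noticed after the values were seen. Whether these peaks came from chromatin at the gene or from other DNA that carries its exons was not tested, and the 5 sites are counted among the 979. Only 8 other strongest sites lay on chromosome X.

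Genes of 13 lists, 12 of neural regulators, signalling pathways and gene families and 1 of pluripotency genes, were described by their nearest strongest sites, beside the 3.85% of all protein-coding genes that had one. Of 274 listed genes that were annotated, 64 (23.4%) had at least 1. The lists were chosen with earlier results of these data known, so these shares are a description only. Listed genes also had a region of any score more often (56.6% against 16.2% of all protein-coding genes). SOX genes with a strongest site were Sox2, Sox4, Sox5, Sox13 and Sox21 (5 of 15). Sox21, a SOXB2 gene, had a site 5581 bp from its start (2370, 973 and 1625 in replicates 1, 2 and 3) with a G-form word. Sox2, the SOXB1 gene of pluripotent and neural cells, had its higher site 3916 bp from the start (1004, 608 and 1031), with a core word and no A-form or G-form word. Of 12 POU genes, 2 had a site: Pou5f1, which encodes OCT4, had promoter sites at 942 bp (717, 335 and 552) and 1978 bp (609, 331 and 528), and Pou2f1, which encodes the octamer-binding OCT1, had a promoter site at 475 bp (525, 287 and 578).

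Among neural progenitor markers 8 of 17 genes had a strongest site, namely Nes, Msi1, Msi2, Slc1a3, Pax6, Sox2, Cdh2 and Notch1. Nes encodes the intermediate filament nestin, and its intronic site 3373 bp from the start had scores of 953, 587 and 1027 in replicates 1, 2 and 3. Slc1a3, a glutamate transporter gene of radial glia, had a site 121335 bp away (861, 456 and 640). Of the forebrain and midbrain identity genes 10 of 35 had one. These included Nr2f1, a nuclear receptor (715, 444 and 739, at 228115 bp, with a composite word), and Irx1 (890, 365 and 636, at 455784 bp). Of the dorsoventral homeodomain genes and their partners 6 of 17 had one: Nkx2-1, a ventral forebrain factor, had 1236, 863 and 1861 at 77911 bp, and Olig3, a dorsal bHLH factor, had 1434, 709 and 1339 at 47889 bp.

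Of the Notch genes 6 of 26 had a strongest site, with the ligand Dll1 at 120363 bp (1210, 493 and 889, no word) and at 3880 bp (1128, 447 and 637), and the effector Hey1 at 18311 bp (762, 351 and 563). Of the Wnt genes 13 of 45 had one, among them the ligands Wnt1 and Wnt8a, the receptors Fzd3, Fzd7 and Fzd8, the HMG-box effectors Lef1, Tcf7, Tcf7l1 and Tcf7l2, and the inhibitor Axin2. Fzd3 had 770, 590 and 1269 in an intron, and Tcf7 had 849, 581 and 1051 at 3415 bp with the composite word shown above. Of the FGF genes 4 of 28 had one: the feedback inhibitor Spry2, the receptors Fgfr1 (612, 348 and 472) and Fgfr3 (486, 357 and 522), and the ligand Fgf9. Hedgehog genes had 1 of 14, the effector Gli2 (464, 513 and 892, in an intron).

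Axon guidance genes had 9 of 32, with 22 sites, of which Epha4 had 7 and Efnb2, an ephrin, 3. The first Efnb2 site in the order by lowest percentile lay in an exon of the gene, 19602 bp from its start (1028, 576 and 1084), and Plxna2, a semaphorin co-receptor, had a site 585508 bp away (1389, 682 and 1288). Proneural and Id genes had 1 of 17, Id2 (428, 231 and 469), and nuclear factor I and TALE genes 3 of 13, among them Meis1 (563, 254 and 350) and Meis2 (397, 206 and 352). Pluripotency genes had 4 of 15, Pou5f1, Klf2 (440, 317 and 627 at 2797 bp), Dppa3 and Sall4. The nearest gene is a matter of position, and no expression was measured here. With nearest genes of any region counted, 56.6% of the listed genes and 16.2% of all protein-coding genes had at least 1.

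**Figure D5:**
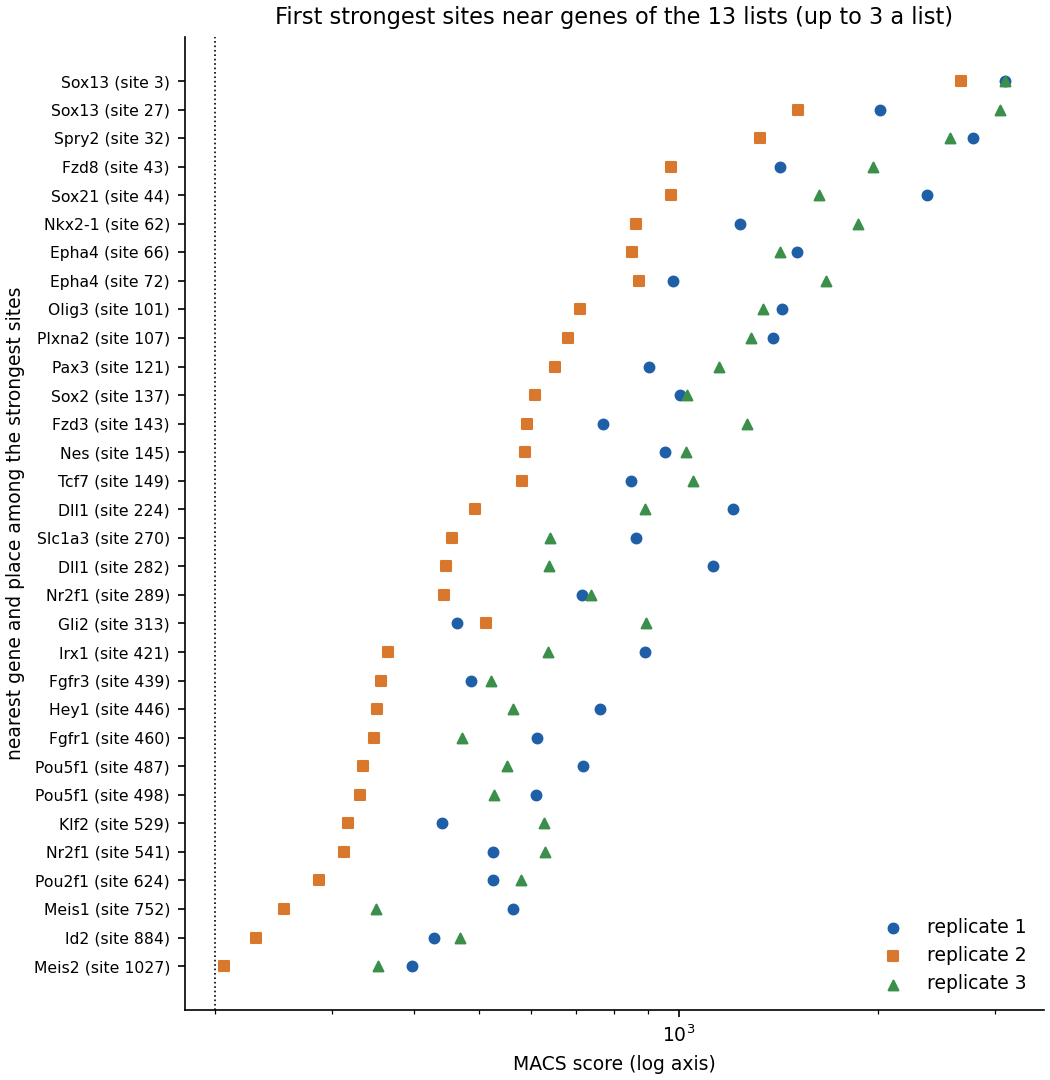
MACS score (x axis, log) in replicates 1, 2 and 3 of the first strongest sites, up to 3 a list and with 1 left out, nearest to genes of the 13 lists (y axis, with the place of each site among the 1070); the dotted line marks 200. Sox13, Spry2, Fzd8 and Sox21 lead, and replicate 2 is lowest at each site but that of Gli2, where replicate 1 is.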

How the data were processed

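SOX3 ChIP-seq of 3 replicates of NP cells (4 days in N2B27) was analysed. The authors aligned 50 bp single-end reads to mm9 with Bowtie 1.0.0, called peaks of each replicate with MACS (version not given in the sources used here; bandwidth 300, p-value threshold 1e-05) against the input, and deposited the peaks with their score, read as 10 times the negative log10 p-value (lowest score 50), without normalization between replicates. It moves with library depth, which is unknown. Members and gene lists were chosen with earlier results of these data known.

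Peaks were joined by an overlap of at least 1 bp. The centre was the median of the middles of the highest peak of each replicate. Genes were from GENCODE vM1 on NCBIM37, and nearest means the nearest transcript start. Differences of shares have 95% Newcombe intervals and were called where the interval left out 0. The sites named were the 12 first by lowest percentile, up to 5 on small RNA and at histone genes, 3 a list, 8 with the composite word, 3 with no word and 3 on each side of the threshold, of which 1 site with the composite word and 1 of a list are not reported here. Pcdh19, Efnb2, Hist1h2ao, Hist1h2ap, Sfi1, Gm10925, Tmem181b-ps, Edem3 and the genes listed by name only were named beyond this rule, after their values were seen. So were the further sites of Epha4, Sox13, Pax3 and Nos1ap. On simulated data, 800 of 800 planted sites and 200 of 200 planted words were recovered. The tools were pysam 0.24.0 for sequence, numpy 2.4.6 with numba 0.67.0 for counting, scipy 1.17.1 for intervals and matplotlib 3.10.9, under Python 3.11.15.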

Additional observations from a re-analysis of the deposited data

How the results depend on the processing

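Of 122 differences of shares recomputed under other settings, 118 kept their direction and their side of the call, and of 16 numbers of sites and genes, 10 stayed within 1.5 times. The number of strongest sites was 586 at a score of 300 and 406 with the 600 highest peaks of each list, and from 1071 to 1804 with a replicate left out (1804 without replicate 2); their nearest genes were 512, 358 and from 919 to 1477. The composite difference was no longer called with the 600 highest peaks (2.67 points, -0.0340 to 6.23) or with small RNA and histone sites kept (1.53 points). The intergenic difference ranged from -1.38 points (without replicate 1) to 4.60 points (without replicate 2), where it was called. The cause was not tested. The differences in A-form and G-form SOX words ranged from 9.74 to 19.1 and from 10.8 to 20.7 points over 12 settings. Those in the octamer ranged from 2.96 to 7.07, in the composite word from 1.53 to 4.05 and in promoters from -10.5 to -5.15. Leaving out chromosomes 1 and 8 was added after the data were seen. No paired analysis was possible because the replicate numbers belong to a single ChIP group and the input has no list here. Depth is unknown, so scores rank sites within a list only.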

Other observations

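The widest strongest sites away from small RNA and histone genes were far wider than the rest, whose median was 536 bp. A site nearest to Sfi1 (chr11:3039431-3048917) spanned 9487 bp with scores of 953, 296 and 553 in replicates 1, 2 and 3, and 3.55% of its 50-base stretches were multi-copy. A site nearest to Gm10925 (chr1:24618336-24623029) spanned 4694 bp with scores of 2308, 734 and 2332, and 96.2% was multi-copy. The sites nearest to Tmem181b-ps (3312 bp, 81.9% multi-copy) and Edem3 (2796 bp, 77.9% multi-copy) followed, and the site over AY036118 described above, of 5912 bp, was 9.30% multi-copy. Only copies present in the reference enter this measure, so a low value does not show that a sequence is single-copy in the cells.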
